A study of Mus musculus with 24 samples.

Results

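The genes of MHC class I antigen presentation were followed across all groups of a microarray study of dystrophic mouse muscle. The set holds 8 genes listed by name: B2m, H2-D1, H2-K1, H2-T23, Tap1, Tap2, Tapbp and Nlrc5. They were found by their symbols in the platform annotation, which gave 13 of the 25697 probes on the array. Of these 13 probes, 11 were kept because they gave a signal above background on at least 4 arrays (detection p under 0.05), and each of the 8 genes had at least 1 kept probe among the 8945 genes tested.

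Each array held RNA from the gastrocnemius, a calf muscle, of 1 of 24 male mice. The groups were mdx mice injected with sActRIIB-Fc and given a running wheel (the combination, n = 5), mdx mice injected with sActRIIB-Fc (n = 5), mdx mice injected with PBS and given a running wheel (running, n = 5), mdx mice injected with PBS (n = 5), and wild-type C57Bl/10ScSnJ mice without treatment (n = 4). Mdx mice carry a germline mutation of the dystrophin gene and lack full-length dystrophin, and the labels give "Mdx" as the whole of their strain. sActRIIB-Fc is a soluble activin receptor IIB joined to an antibody tail that binds myostatin and activins. It or PBS was injected into the peritoneum once a week, at 5 mg/kg for sActRIIB-Fc. Treatment lasted 7 weeks in each mdx group, with or without running, and running was voluntary. All mice are labelled as 6 to 7 weeks old, without saying at which point of the experiment. The wild-type mice had no PBS injection, so that genotype and injection cannot be told apart. The labels do not say whether the mice of a group shared a litter or cage, and p-values measure the spread between these samples.

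MHC class I molecules display peptides from the inside of a cell to CD8 T cells. A heavy chain (H2-D1 and H2-K1 are classical ones, H2-T23 encodes the nonclassical Qa-1) pairs with beta-2 microglobulin, the product of B2m. Peptides enter the endoplasmic reticulum through the transporter made of Tap1 and Tap2, and tapasin (Tapbp) holds the empty class I molecule beside it. Nlrc5 is the transactivator of class I promoters, and interferons induce most of these genes. Healthy muscle fibres carry little class I on their surface, whereas endothelial and immune cells carry much.

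The sequences before the start of 4 members are shown because they hold short motifs of the elements through which class I genes are known to be switched on. RefSeq promoter windows on GRCm38.p6 were found for 6 of the 8 members; the tables held none for Tap2 and Nlrc5. Each window below is the 250 bases before the annotated start, 5′ to 3′ on the strand of the gene, and capitals mark matches on either strand to 4 motifs.
B2m, chr2:122147437-122147686, plus strand: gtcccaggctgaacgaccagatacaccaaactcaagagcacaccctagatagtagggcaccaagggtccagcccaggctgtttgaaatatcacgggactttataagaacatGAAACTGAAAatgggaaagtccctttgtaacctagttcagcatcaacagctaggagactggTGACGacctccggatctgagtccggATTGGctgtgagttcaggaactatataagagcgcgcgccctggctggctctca
H2-T23, chr17:36032702-36032951, minus strand: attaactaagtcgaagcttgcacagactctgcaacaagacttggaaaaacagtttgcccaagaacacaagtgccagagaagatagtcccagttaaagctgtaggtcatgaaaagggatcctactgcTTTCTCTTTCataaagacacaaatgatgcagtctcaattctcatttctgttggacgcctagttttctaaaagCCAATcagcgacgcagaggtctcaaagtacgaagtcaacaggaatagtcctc
H2-K1, chr17:34000334-34000583, minus strand: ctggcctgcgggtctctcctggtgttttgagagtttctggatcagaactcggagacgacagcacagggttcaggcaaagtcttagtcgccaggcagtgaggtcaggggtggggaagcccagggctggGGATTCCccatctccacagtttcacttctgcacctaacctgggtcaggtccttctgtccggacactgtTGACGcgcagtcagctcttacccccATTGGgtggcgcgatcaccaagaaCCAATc
H2-D1, chr17:35262844-35263093, plus strand: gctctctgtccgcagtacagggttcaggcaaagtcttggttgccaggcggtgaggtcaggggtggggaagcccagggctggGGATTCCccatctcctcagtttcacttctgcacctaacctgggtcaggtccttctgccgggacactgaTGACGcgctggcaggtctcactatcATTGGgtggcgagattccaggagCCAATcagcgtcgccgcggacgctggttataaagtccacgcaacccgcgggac

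GAAA repeated after a gap of 2 bases of any kind, a form of the interferon-response element, stood in the B2m window at bases -139 to -130 from the start and on the other strand of the H2-T23 window at -124 to -115. Of all 32851 promoter windows of this length, 978 (2.98%) held them. GGATTCC, the core of enhancer A that NF-kappaB binds, stood at -169 to -163 before H2-D1 and at -123 to -117 before H2-K1, and in 1041 of all windows (3.17%). TGACG, the core of the X2 box, was found before B2m, H2-D1, H2-K1 and Tap1 and in 17.8% of all windows. CCAAT, the letters of the Y box, was found in each of the 6 members' windows and in 33.9% of all windows. The search set no distance between motifs, so a match need not be the Y box itself. In the Tap1 window CCAAT stood at -222 to -218, before TGACG at -86 to -82, and the Tapbp window held no TGACG. No match overlapped a match of another motif, and RefSeq gives H2-K1 a second, overlapping window with another start. These matches describe the letters of the windows and were not set against the measured levels. Other spellings of these elements were not searched for, so a window without a match may still hold one. B2m lies on chromosome 2 (122147687 to 122153082) and Nlrc5 on chromosome 8 (94434335 to 94527272), while the other 6 genes lie in the MHC region of chromosome 17 between 33919478 (Tapbp) and 36032701 (H2-T23).

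Between 10404 and 11971 probes were detected per array. Arrays of 1 group correlated at 0.953 to 0.989 in the combination, 0.988 to 0.993 under sActRIIB-Fc, 0.977 to 0.992 under running, 0.986 to 0.993 under PBS and 0.965 to 0.990 in wild type. The lowest of these values joined combination replicates 3 and 4. Hepatocyte transcripts, foreign to muscle, were uneven between arrays: the mean log2 level of 13 tested hepatocyte markers was 11.23 in wild-type replicate 2 and 9.34 to 9.99 in combination replicates 1 and 2 and running replicate 2, against 5.84 to 8.72 on the other 20 arrays. Wild-type replicates 1, 3 and 4 stood at 8.45, 8.41 and 5.86. The group median was highest in wild type, 8.43, against 6.15 in the combination, 6.15 under sActRIIB-Fc, 7.09 under running and 6.20 under PBS. Muscle fibre markers such as Acta1 and Ckm averaged 13.80 to 14.16 in the mdx arrays and 13.87 to 14.06 in wild type. No slide or scan label came with the arrays, so no batch could be tested.

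The first question was whether class I genes differed between dystrophic and healthy muscle. In every mdx group B2m and H2-T23 rose, each by close to 1 log2 unit in mdx under PBS, and Tap2 rose by less. Outside the running group the call of Tap2 was lost under some other processing settings or without single arrays. H2-K1 rose in 3 of the 4 mdx groups and H2-D1 in the combination. Tapbp did not rise in any mdx group, and Tap1 stayed near or below the detection limit throughout. Levels below are log2 of the background-corrected, quantile-normalized signal. Changes are differences of group means ± the standard error of limma's model over all 24 arrays, with p adjusted by Benjamini and Hochberg over the 8945 genes and a limit of 0.05. An offset of 16 added before the log makes changes of dim probes look smaller than they are.

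B2m, the light chain shared by all classical and most nonclassical class I molecules, measured 12.93, 12.79, 12.93, 11.92 and 12.36 in the combination. It measured 12.80, 12.86, 12.64, 12.63 and 12.48 under sActRIIB-Fc, and 12.77, 12.68, 12.73, 12.41 and 12.36 under running. Under PBS it measured 12.82, 12.43, 12.62, 12.66 and 12.13, against 11.68, 11.66, 11.60 and 11.36 in wild type. Each of the 20 mdx arrays lay above the highest wild-type array, and the closest was combination replicate 4. B2m rose by 1.01 ± 0.17 in the combination (adjusted p = 5.06e-05), 1.11 ± 0.17 under sActRIIB-Fc (1.71e-05), 1.02 ± 0.17 under running (5.8e-05) and 0.96 ± 0.17 under PBS (9.99e-05). For PBS against wild type this is 1.95-fold (95% interval 1.52 to 2.49). The group means stood in the order sActRIIB-Fc, running, combination, PBS and wild type. Of the neighbours in that order, PBS and wild type alone differed by more than the larger of their SDs. Another probe of B2m gave 0.93 ± 0.20 for PBS against wild type, and the remaining probe was not detected on any array.

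H2-T23 encodes the heavy chain of Qa-1, which presents class I leader peptides to the CD94/NKG2A receptor of NK cells. It measured 10.13, 9.83, 10.28, 9.29 and 9.67 in the combination, and 9.35, 9.64, 9.75, 9.07 and 9.12 under sActRIIB-Fc. Under running it measured 10.37, 9.65, 9.82, 9.57 and 9.13. PBS arrays gave 9.67, 9.63, 9.78, 9.68 and 9.29, against 8.55, 8.52, 8.85 and 8.65 in wild type. The mdx arrays did not overlap wild type, and running replicate 1 was the highest of all. H2-T23 rose by 1.19 ± 0.20 in the combination (adjusted p = 5.43e-05), 0.74 ± 0.20 under sActRIIB-Fc (0.00574), 1.06 ± 0.20 under running (0.000236) and 0.96 ± 0.20 under PBS (0.000603). Its second probe gave 1.19 ± 0.22, 0.91 ± 0.22, 1.09 ± 0.22 and 0.99 ± 0.22 in that order of groups. The lowest mdx mean, under sActRIIB-Fc, still exceeded wild type by more than the larger SD, whereas neighbouring mdx means did not differ by that much.

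H2-K1 encodes one of the classical heavy chains that present peptides to CD8 T cells. It measured 6.41, 6.62, 6.77, 6.28 and 6.44 in the combination, and 6.20, 6.34, 6.01, 5.40 and 5.60 under sActRIIB-Fc. Running gave 6.76, 6.11, 6.18, 6.30 and 6.04, and PBS gave 5.97, 6.33, 6.33, 6.25 and 6.22, against 5.47, 5.84, 5.87 and 5.81 in wild type. Every array of the combination, running and PBS groups lay above wild type, and 3 of the 5 sActRIIB-Fc arrays did. H2-K1 rose by 0.75 ± 0.17 in the combination (adjusted p = 0.000987), 0.53 ± 0.17 under running (0.0171) and 0.47 ± 0.17 under PBS (0.0307), and its change under sActRIIB-Fc was 0.16 ± 0.17 (0.471). The PBS call rested on several single arrays. It was lost without wild-type replicate 1, whose probe was not detected (0.38, adjusted p = 0.11), and without PBS replicates 2 (0.0603), 3 (0.061) or 4 (0.0519). With the raw median signal of each array as a covariate it was lost as well (0.0736). The running call was lost without wild-type replicate 1 (0.0701) or running replicate 1 (0.0566). The other probe of H2-K1 was not detected on any array. The wild-type mean of H2-K1, 5.75, lay close to the mean level at the wild-type detection limit, 5.53.

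H2-D1, the other classical heavy chain, measured 6.58, 6.33, 7.10, 5.93 and 6.41 in the combination and 5.84, 6.33, 6.70, 6.12 and 5.65 under sActRIIB-Fc. It measured 6.47, 6.42, 6.19, 6.01 and 5.95 under running and 6.24, 5.93, 6.17, 6.56 and 5.87 under PBS, against 4.86, 5.86, 6.00 and 6.11 in wild type. All 4 mdx groups overlapped wild type, in which replicate 1 was not detected. The wild-type mean of H2-D1, 5.71, lay close to the mean level at the wild-type detection limit, 5.53. H2-D1 rose in the combination by 0.76 ± 0.24 (adjusted p = 0.015). With wild-type replicate 1 left out the change was 0.48 and no longer passed (adjusted p = 0.1), and with combination replicate 3 left out it was 0.61 (adjusted p = 0.0535). Its changes were 0.42 ± 0.24 under sActRIIB-Fc (0.176), 0.50 ± 0.24 under running (0.114) and 0.44 ± 0.24 under PBS (0.154). Without wild-type replicate 1 they were 0.14, 0.21 and 0.16 in the same order (0.671, 0.491 and 0.616). H2-D1, H2-K1 and other class I genes are close in sequence, and whether a probe also binds a related transcript was not tested.

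Tap2, one of the 2 chains of the peptide transporter, measured 8.37, 8.29, 8.36, 8.74 and 8.64 in the combination and 8.62, 8.28, 8.37, 8.51 and 8.49 under sActRIIB-Fc. Running arrays gave 8.72, 8.61, 8.63, 8.75 and 8.38, and PBS arrays gave 8.42, 8.66, 8.50, 8.46 and 8.74, against 7.95, 7.85, 8.16 and 8.55 in wild type. Wild-type replicate 4 lay within the range of every mdx group. Tap2 rose by 0.35 ± 0.13 in the combination (adjusted p = 0.0303), 0.33 ± 0.13 under sActRIIB-Fc (0.0456), 0.49 ± 0.13 under running (0.00407) and 0.43 ± 0.13 under PBS (0.00973). Without wild-type replicate 2 the call was lost in the combination (0.133), under sActRIIB-Fc (0.184) and under PBS (0.0539), while under running it held in each alternative. Without wild-type replicate 1 it was lost in the combination (0.101) and under sActRIIB-Fc (0.138). It was also lost in the combination without combination replicate 4 (0.076) or 5 (0.0678). Under sActRIIB-Fc it was lost without wild-type replicate 3 (0.0704) or sActRIIB-Fc replicates 1 (0.105), 4 (0.0814) or 5 (0.0741). With the mean hepatocyte marker level of each array as a covariate, the Tap2 change was 0.22 under sActRIIB-Fc (adjusted p = 0.199). In the combination it was 0.30 with that covariate (0.0532). Among wild-type arrays, Tap2 was lowest in replicate 2, with a hepatocyte level of 11.23, and highest in replicate 4, with 5.86.

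Tap1, the other chain of the transporter, was detected on 5 of 24 arrays: 1 of the combination, 3 under running, 1 under PBS and none under sActRIIB-Fc or in wild type. Its measured means were 5.19, 5.16, 5.24 and 5.14 in the combination, sActRIIB-Fc, running and PBS groups, against 4.97 in wild type. All were below the mean level at the wild-type detection limit, 5.53, so no fold is given. Adjusted p lay between 0.249 and 0.472 in the 4 comparisons with wild type. Nlrc5, the transactivator, was likewise detected on 5 of 24 arrays, all of them mdx. Its means were 5.02, 5.07, 5.14 and 5.01 in the same order of groups, against 4.69 in wild type, where it was not above background. The limma test was passed under sActRIIB-Fc (adjusted p = 0.0478) and running (0.0202), and was missed in the combination (0.0833) and under PBS (0.0894). The running call was lost without wild-type replicate 1 (0.0526). The sActRIIB-Fc call was lost when any of 7 single arrays was left out, wild-type replicates 1 (0.103), 2 (0.0931) and 4 (0.0834) and sActRIIB-Fc replicates 2 (0.0567), 3 (0.0611), 4 (0.0662) and 5 (0.13). It was also lost with the replicate number as a block (0.0502). The combination passed without combination replicate 4 (0.0326) and PBS without PBS replicate 2 (0.04). Both genes passed the detection filter through mdx arrays alone, so neither is support for a direction of the 8 genes.

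Tapbp encodes tapasin, which bridges class I molecules and the transporter while peptide is loaded. It measured 5.50, 5.39, 5.68, 5.99 and 6.06 in the combination and 6.01, 6.16, 6.25, 5.95 and 6.09 under sActRIIB-Fc. Running gave 5.99, 5.96, 6.15, 6.39 and 5.80, and PBS gave 5.94, 6.02, 5.82, 5.93 and 5.92, against 6.04, 6.02, 6.12 and 6.03 in wild type. Every PBS array lay below every wild-type array, as for 15.1% of all genes, but the change of -0.13 ± 0.12 did not pass (adjusted p = 0.451) and ran from -0.22 to 0.10 under other settings. Tapbp fell in the combination by 0.33 ± 0.12 on the log2 scale (adjusted p = 0.0401), and its weaker probe went the other way there with a change of 0.18 ± 0.17 (0.424 over all probes). The call was lost without combination replicates 1 (0.103), 2 (0.126) or 3 (0.0694) or without any 1 of the wild-type arrays (0.0616 to 0.0928). It was also lost with arrays scaled to equal medians, where the change was -0.12 (0.488).

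**Figure D1:**
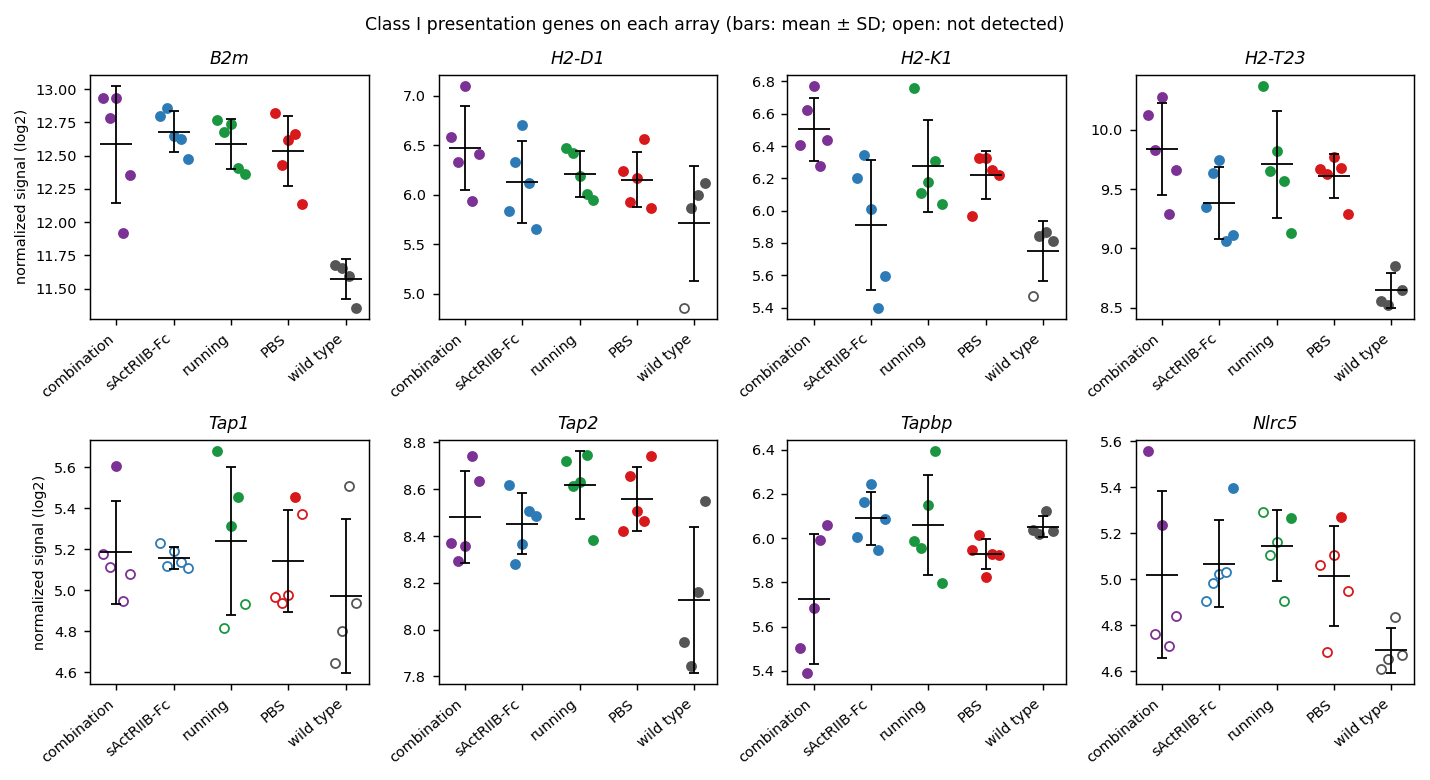
Log2 normalized signal of the 8 genes on each of the 24 arrays, with group means ± SD (n = 5 in each mdx group, n = 4 in wild type); filled points were detected, open points were not. B2m and H2-T23 separate all 20 mdx arrays from wild type, whereas Tap1 and Nlrc5 are mostly undetected.

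Counts against the whole array are given over the 6 members detected on at least 1 wild-type array, which leaves out Tap1 and Nlrc5. Of these 6, 5 were called higher and 1 lower in the combination, where 39.3% of all genes were called, 19.5% higher and 19.7% lower. Under sActRIIB-Fc 3 of the 6 were higher (38.8% of all genes called, 19.8% higher), under running 4 (34.7% called, 17.8% higher) and under PBS 4 (37.7% called, 19.3% higher). The median change of the 6 was 0.76 in the combination, 0.37 under sActRIIB-Fc, 0.51 under running and 0.46 under PBS, beside -0.06, -0.04, -0.04 and -0.05 over all genes. Scaling the arrays to equal medians in place of quantile normalization moved the median of all genes under PBS to 0.07, a shift of 0.12. The calls over all genes for PBS against wild type then split into 2203 higher and 861 lower, against 1725 higher and 1651 lower in the main setting, and H2-D1 also passed under PBS (adjusted p = 0.0466), running (0.0307) and sActRIIB-Fc (0.047). Every array lay above every wild-type array for 3 of the 6 in the combination (13.4% of all genes), 2 under sActRIIB-Fc (17.4%), 3 under running (15.1%) and 3 under PBS (17.2%). The 4 comparisons share the 4 wild-type arrays.

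**Figure D2:**
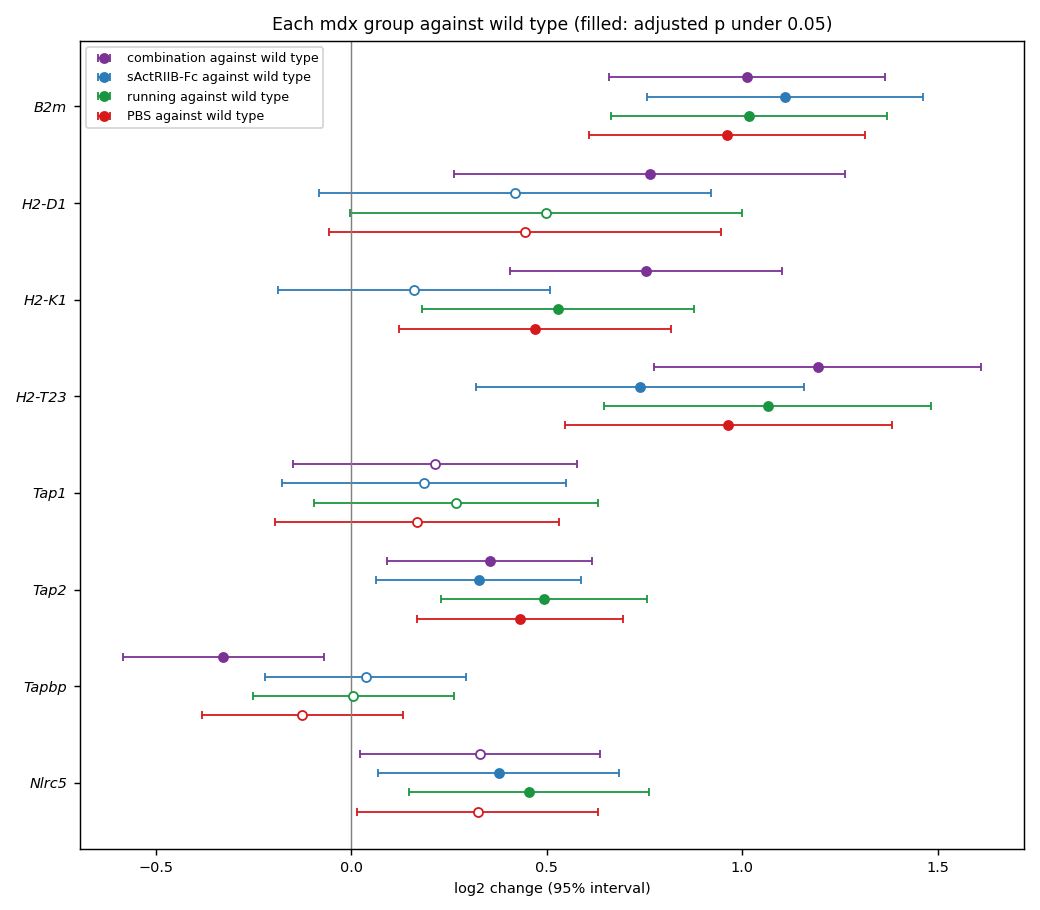
Log2 change of each member in the 4 mdx groups against wild type, with 95% intervals from the limma model; filled points passed adjusted p 0.05. The intervals of B2m, H2-T23 and Tap2 lie above 0 in all 4 groups, and that of Tapbp lies below 0 in the combination.

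The second question was whether running or sActRIIB-Fc moved these genes within mdx muscle. None of the 8 members passed limma's adjusted limit in any comparison between mdx groups. The same holds for nearly all genes: 0.0112% of the 8945 genes, a single gene, was called for running against PBS and for running averaged over both injections, and 0 in the other 6 comparisons between mdx groups. At an unadjusted p under 0.05 stood 741 of all genes and 3 members in the combination against sActRIIB-Fc, and 339 genes and 1 member in the combination against running. No member reached it for the combination against PBS (523 of all genes), sActRIIB-Fc against PBS (285) or running against PBS (297). For the effect of running over both injections it was 1 member (599 genes), for that of sActRIIB-Fc over both activities 0 (282) and for the interaction 2 (356).

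B2m differed little between mdx groups. Its change was 0.05 (95% interval -0.28 to 0.39) for the combination against PBS, 0.15 (-0.18 to 0.48) for sActRIIB-Fc and 0.06 (-0.28 to 0.39) for running. These intervals leave out a change as large as the one between PBS and wild type. The intervals of H2-D1 were wider, for instance -0.15 to 0.79 for the combination against PBS. Those of Tap2 ran from -0.33 to 0.17 for the combination, -0.35 to 0.14 for sActRIIB-Fc and -0.19 to 0.31 for running against PBS.

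H2-K1 had its widest gap between the combination and sActRIIB-Fc alone, 0.59 ± 0.16 (95% interval 0.27 to 0.92). Unadjusted p was 0.00102 and adjusted p 0.522. In the values given above, 4 of 5 combination arrays lay above all sActRIIB-Fc arrays, and combination replicate 4 fell below the highest of them. H2-T23 differed there by 0.45 ± 0.19 (0.06 to 0.85, adjusted p = 0.581) and Tapbp by -0.36 ± 0.12 (-0.61 to -0.12, adjusted p = 0.522). Over both injections, running changed H2-K1 by 0.33 ± 0.11 (unadjusted p = 0.00784, adjusted p = 0.551). The interaction of running with sActRIIB-Fc was 0.54 ± 0.22 for H2-K1 and -0.49 ± 0.17 for Tapbp, both with adjusted p = 0.926. Over the 5 pairs of mdx groups compared, the 40 member values ran from -0.36 to 0.59, and 4 of them had an unadjusted p under 0.05.

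**Figure D3:**
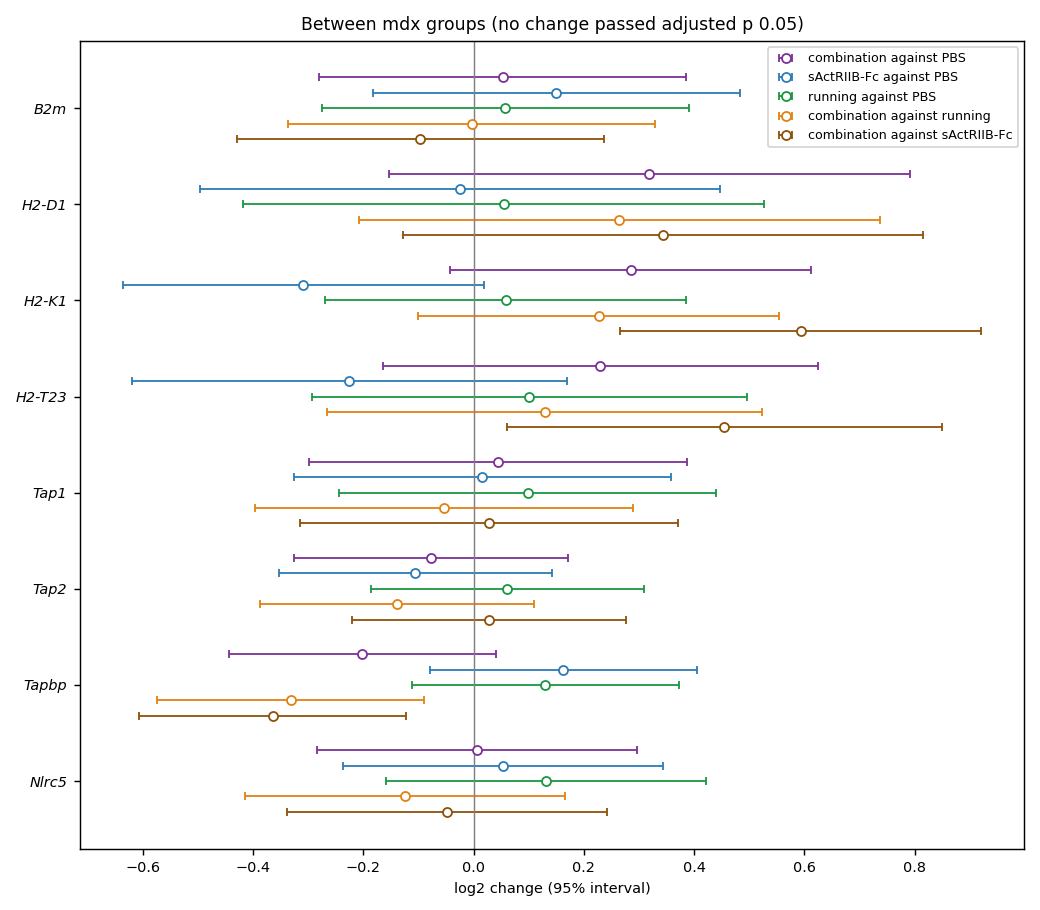
Log2 change of each member for 5 pairs of mdx groups, with 95% intervals from the limma model. No point passed adjusted p 0.05; the intervals that leave out 0 are those of H2-K1, H2-T23 and Tapbp for the combination against sActRIIB-Fc and of Tapbp for the combination against running.

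Genes of the same pathway were taken from lists. A listed gene not detected in wild type passed the detection filter through mdx arrays alone, so its call is no support for a direction. Of 12 genes of peptide supply and loading, 9 were tested, and for PBS against wild type 4 were higher and none lower. Over all genes 19.3% were called higher there. Pdia3, a disulfide isomerase of the loading complex, averaged 9.92 ± 0.28 under PBS and 9.02 ± 0.19 in wild type (SD; change 0.91 ± 0.17, adjusted p = 0.000178). The chaperone Calr rose by 0.65 ± 0.19 (0.0095) and the immunoproteasome subunit Psmb8 by 0.58 ± 0.19 (0.0179). The median of the list was 0.17, beside -0.05 over all genes. Its higher calls numbered 3 in the combination, 2 under sActRIIB-Fc and 2 under running against wild type, with none lower. Over all genes 19.5%, 19.8% and 17.8% were called higher in that order.

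Of 19 other class I and class I-like molecules, 9 were tested, and 3 were higher and 2 lower for PBS against wild type. Counts this small lie close to the share over all genes, 19.3% higher and 18.5% lower. H2-M3, which presents formylated bacterial peptides, rose by 0.68 ± 0.20 (adjusted p = 0.00945), while Mr1, which presents vitamin B metabolites to MAIT cells, fell by 0.79 on the log2 scale (SE 0.16, adjusted p = 0.000505). H2-M2 was not above background in wild type and was at least 1.12-fold higher under PBS (measured means 5.70 and 4.63, adjusted p = 0.000447).

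Among 16 regulators of class I transcription, 10 were tested, 3 higher and 2 lower for PBS against wild type, with a median of -0.05 that equals that of all genes to 2 decimals and counts near the share over all genes. Irf1, an interferon-induced factor that binds interferon-response elements, averaged 9.48 ± 0.17 under PBS and 8.79 ± 0.19 in wild type (change 0.69 ± 0.14, adjusted p = 0.000286). Ifngr1, a chain of the interferon-gamma receptor, rose by 0.39 ± 0.12 (0.0108), whereas the other chain, Ifngr2, fell by 0.34 on the log2 scale (SE 0.09, adjusted p = 0.00387). Jak2, a kinase of that receptor, fell by 0.98 on the log2 scale (SE 0.10, adjusted p = 5.78e-08). Of 24 interferon-induced genes, 18 were tested, 6 were higher and none lower, with a median of 0.47, beside 19.3% of all genes higher. Irf7, Stat2, Rtp4 and Cxcl10 were not detected in wild type, and Irf7 and Stat2 are among the 6. Oasl2, an antiviral gene, rose by 1.73 ± 0.23 (adjusted p = 2.96e-06), the chemokine Cxcl9 by 1.24 ± 0.39 (0.0149) and the ubiquitin-like Isg15 by 1.02 ± 0.31 (0.0118). Against wild type the same list had 9 higher in the combination, 5 under sActRIIB-Fc and 12 under running, beside 19.5%, 19.8% and 17.8% of all genes.

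MHC class II genes, which serve professional antigen-presenting cells, had a larger median change than the class I genes. Of 10 listed, 8 were tested and 7 were higher under PBS, with a median of 2.12, beside 19.3% of all genes higher. Ciita, among the 7, was not detected in wild type. H2-Ab1 averaged 11.78 ± 0.32 under PBS and 8.98 ± 0.38 in wild type, and H2-Eb1 and the invariant chain Cd74 rose by 2.71 ± 0.18 (adjusted p = 6.09e-11) and 2.66 ± 0.16 (7.03e-12). The difference between the class I and class II changes was not tested.

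**Figure D4:**
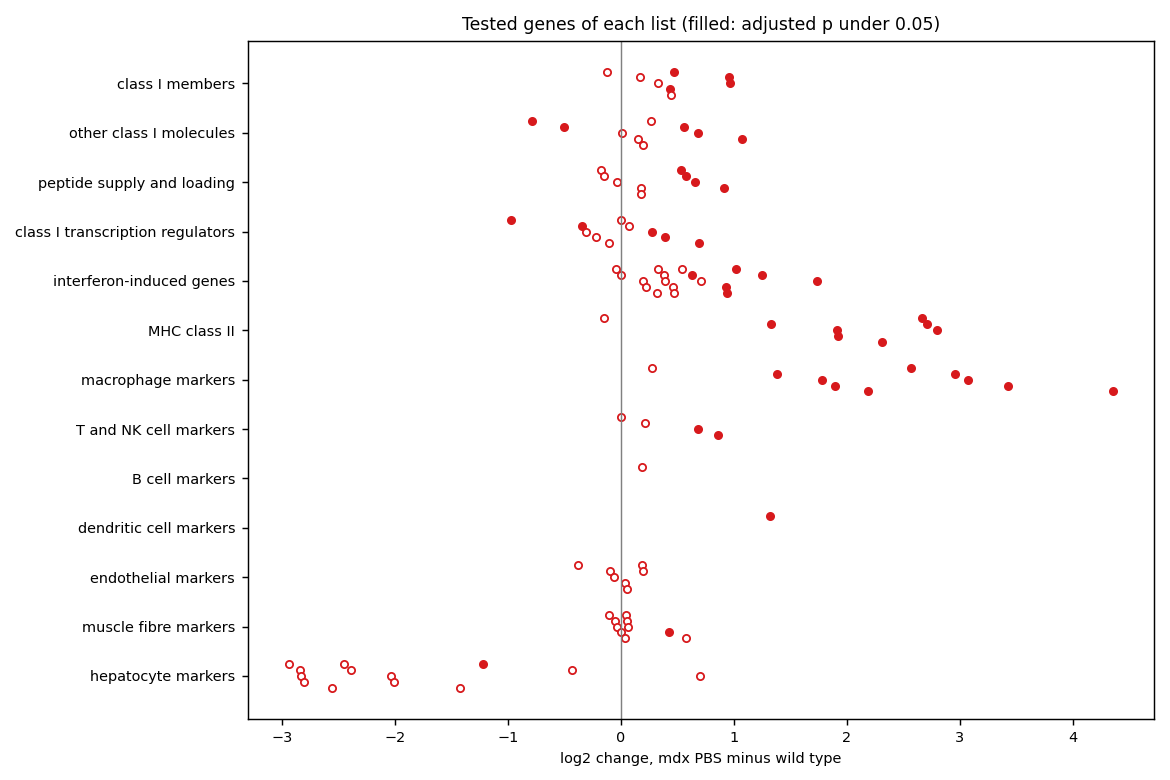
Log2 change for PBS-injected mdx minus wild type of every tested gene of each list, filled where adjusted p was under 0.05. The class I members lie between -0.13 and 0.96, whereas the MHC class II and macrophage lists have medians of 2.12 and 2.38.

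Markers of immune cells were also taken from lists. Of 14 macrophage markers 10 were tested, and 9 were higher under PBS with a median of 2.38, beside 19.3% of all genes higher. Fcgr1, among the 9, was not detected in wild type, and Cd163 did not pass (0.28 ± 0.20, adjusted p = 0.279). Lgals3 rose by 4.36 ± 0.35 (adjusted p = 2.1e-09), lysozyme Lyz2 by 3.43 ± 0.33 (3.41e-08) and Adgre1, which encodes F4/80, by 3.07 ± 0.27 (8.76e-09). The mean level of the list per array was 8.47 to 10.35 in the combination, 9.01 to 9.56 under sActRIIB-Fc, 8.74 to 9.49 under running and 9.08 to 9.65 under PBS, against 6.72 to 7.36 in wild type. Its part in the class I changes was not tested. In whole muscle, more cells of a type and more RNA per cell cannot be told apart.

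Of 15 T and NK cell markers 4 were tested, and both Klrd1 and Nkg7 passed under PBS. Klrd1 encodes CD94, a chain of the Qa-1 receptor. It averaged 5.51 under PBS and 4.65 in wild type (adjusted p = 0.000808), and Nkg7, a cytotoxic granule gene, 5.45 and 4.77 (0.000535). Neither was above background in wild type, and both PBS means lay under the limit of 5.53. The defining T cell markers Cd3e, Cd4 and Cd8a and the effector genes Gzma, Gzmb and Ifng were detected on 0 arrays. The NK cell receptor gene Ncr1 was also detected on 0 arrays, and Cd3d, Cd3g and Klrk1 on 1 each. The effector gene Prf1, which encodes perforin, was detected on 24 of 24 arrays and did not pass (0.00 ± 0.15, adjusted p = 0.995). Cd8b1, a chain of the CD8 coreceptor, was detected on 7 arrays, none of them wild type, and did not pass either (0.404).

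Of the remaining marker lists, the tested dendritic cell gene Batf3, not detected in wild type, was at least 1.40-fold higher under PBS (adjusted p = 4.77e-06). The tested B cell gene Cd79b did not pass (0.18 ± 0.18, 0.447). Of 7 tested endothelial markers none passed under PBS, with Eng at 0.20 ± 0.18 (0.392) and Vwf at -0.38 ± 0.16 (0.0716). Of 10 muscle fibre markers Myh1, a fast myosin heavy chain, rose (0.42 ± 0.15, 0.0291). Of 13 hepatocyte markers Cyp2e1 fell by 1.22 on the log2 scale (SE 0.34, adjusted p = 0.00627), and the list had a median of -2.39. The mean level of this list ran from 5.86 to 11.23 over the wild-type arrays. No gene of the 12 lists passed in any comparison between mdx groups.

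Within a group, several arrays were high or low for most members at once. Running replicate 1 was the highest of its group for 6 of 8 members, with a mean deviation of 0.28 from the group means, and it had the highest interferon-induced level of all 24 arrays, 8.33. Its macrophage level, 9.25, lay below those of running replicates 2 (9.33) and 3 (9.49). Running replicate 5 was the lowest of its group for 6 members (mean deviation -0.25) and had the lowest macrophage level under running, 8.74. Combination replicate 4 was the lowest for 6 members (-0.25), with the lowest macrophage level of any mdx array, 8.47, and the lowest interferon-induced level of any mdx array, 7.13. Combination replicate 3 was the highest for 5 members (0.27) and had the highest macrophage level, 10.35. Its interferon-induced level, 7.80, lay below that of combination replicate 1, 8.14. In wild type, replicate 3 lay above the group mean for 8 of 8 members. Tap2 and Tapbp ran against the others in combination replicate 4, where each exceeded its group mean. The part of the macrophage and interferon-induced levels in these deviations was not tested.

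**Figure D5:**
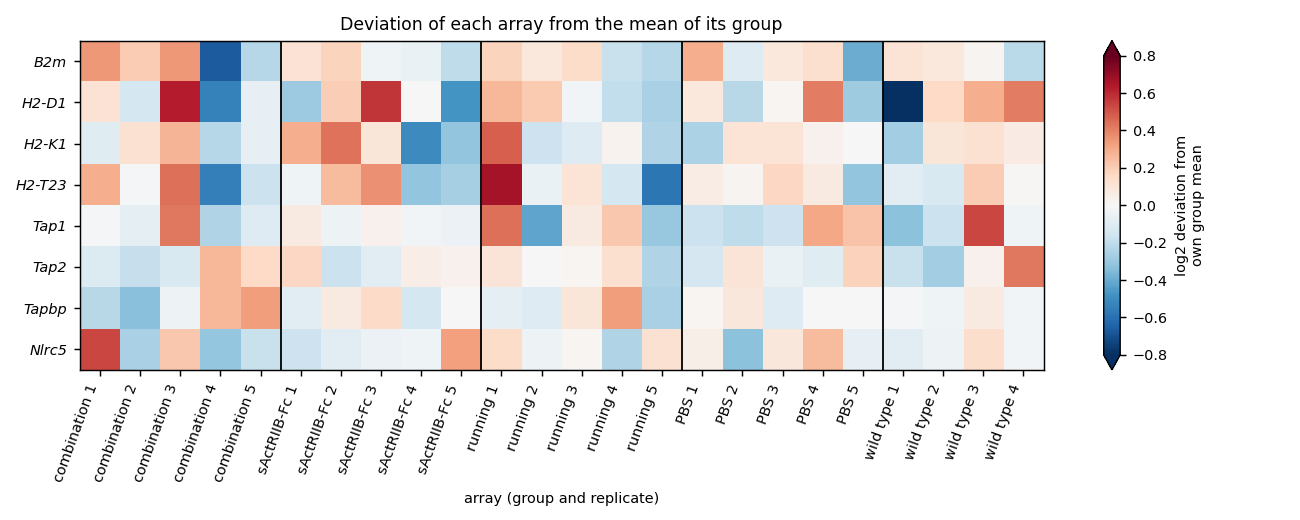
Deviation of each array from the mean of its own group for the 8 members, in log2 units (red above, blue below, colours end at 0.8 either way). Running replicate 1 and combination replicate 3 are above their group means for most members, running replicate 5 and combination replicate 4 below.

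The profile of the members over the 24 arrays was also compared with every other tested gene. After each gene was centred on its own mean, the genes nearest to the members' mean profile by root mean square difference were Necap2 (0.132), Eif4e2 (0.135), Rab8a (0.136), Nme1 (0.137) and Smim7 (0.137), and the median over all genes was 0.345. Each of the 8 members lay farther from that mean than these 5, from 0.200 for Tap1 to 0.344 for Tapbp. The measure is not scaled for the size of a gene's changes. The mean profile itself had an SD of 0.240 over the arrays, about the distance of a gene that does not vary. B2m (0.291), H2-T23 (0.277), H2-D1 (0.267) and Tapbp lay beyond that value, and the other members within it.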

How the data were processed

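Gastrocnemius RNA of 24 mice was measured on Illumina BeadChips. The deposited table holds intensity values per probe, not background-corrected or normalized, and, per the file headers, a detection p-value beside each. A deposited matrix holds log2 values. It equals the log2 of the quantile-normalized intensities to within 0.005. The scanner software is not given in the sources used here.

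In limma 3.58.1 under R 4.3.3, intensities were corrected by normexp with an offset of 16, reading the negative controls back from the detection p-values, then quantile normalized and put on the log2 scale. Probes with detection p under 0.05 on at least 4 arrays were kept (12623 of 25697). Platform annotation gave 23978 probes 1 symbol, none several, and 1719 none. The brightest kept probe stood for each gene. One model with a mean per group over all 24 arrays was tested by eBayes, two-sided, in 12 comparisons, adjusted by Benjamini and Hochberg. The number of arrays limits the precision. On simulated arrays of the PBS and wild-type comparison with 8945 genes, 52% of 100 changes of 0.5 log2 and 95% of 100 changes of 1 log2 were recovered, with 4 false calls. The simulation drew each gene independently and changed far fewer genes than the 3376 called in the data. Its shares therefore need not hold for the real comparison, and comparisons between mdx groups were not simulated.

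The members and lists were chosen with earlier results of these data known. Named genes are all members, up to 3 called genes per list with the largest change under PBS against wild type (or the 2 with the lowest p where none passed), and the 5 nearest profiles. For a gene not detected in wild type, a fold is the PBS mean over the mean of the weakest detected signal of each wild-type array (or the gene's own signal, where higher), written "at least". Alternatives covered background correction, offset, scaling, detection filter, probe choice, arrays in the fit, the replicate number as a block, 2 covariates and leaving out arrays.

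Replicate numbers were checked as pairs by correlating the deviations of same-numbered arrays from their group means. All pairs exceeded r = 0.1 for combination with running (0.346 to 0.499, 5 pairs) and combination with wild type (0.17 to 0.496, 4 pairs), so the numbers count as pairing those groups. In the other 8 of 10 group pairs at least 1 correlation was lower (-0.439 to 0.65 over all 46). The pairing comes from these values, as no label says what a number marks. Raw median signal was lower in the last replicate than in replicate 1 of every group, for instance 98.98 and 79.10 under PBS and 90.55 and 72.32 in wild type. Hepatocyte marker levels were high in replicate 2 of wild type (11.23), running (9.93) and the combination (9.34). In replicate 2 of PBS and sActRIIB-Fc they were 5.98 and 6.15. Whether the gradient of the raw median with the replicate number, or the hepatocyte levels, bear on the correlations was not tested.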

Additional observations from a re-analysis of the deposited data

Results flagged for a closer look

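Dixon's gap test, which chance passes in about 1 of 20 groups, was applied to 40 sets of a member in a group and marked 3. H2-K1 in wild-type replicate 1 was 5.47, with the other 3 wild-type arrays at 5.81 to 5.87. Tapbp in wild-type replicate 3 was 6.12, with the others at 6.02 to 6.04. Nlrc5 in sActRIIB-Fc replicate 5 was 5.39, with the others at 4.90 to 5.03, and was detected on that array of the group alone. All 3 arrays bear on calls against wild type, and the values or their range without them are given with each gene in the report.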

How the results depend on the processing

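B2m and H2-T23 kept their calls against wild type in all 4 mdx groups under each of 19 alternatives per comparison, with B2m at 0.74 to 1.11 (highest adjusted p 0.00271) and H2-T23 at 0.79 to 1.11 (0.00436) under PBS. Of 608 alternative values against wild type, 531 kept direction and side of the limit, 62 lost the call, 6 gained one and 9 changed sign without a call. No called value changed sign. Of 1520 between mdx groups, none gained a call and 81 changed sign. The number of members called under sActRIIB-Fc was 4 in the main setting and 2 without the detection filter. In the combination it was 6, and 3 with only the groups compared in the fit. Without the 4 arrays highest in hepatocyte transcripts it was 2 under PBS (main 4), 2 under sActRIIB-Fc and 3 in the combination. There Tap2 and H2-K1 missed the limit under PBS (adjusted p 0.0587 and 0.0526), with fewer arrays by construction. Leaving out single arrays gave 3 to 6 members in the combination, 2 to 3 under sActRIIB-Fc, 3 to 5 under running and 3 to 4 under PBS. Calls over all genes moved as well. Under the alternatives other than leaving out single arrays they ran from 2454 to 3922 in the combination (main 3512). They ran from 3024 to 3824 under sActRIIB-Fc (3475), 2497 to 3462 under running (3108) and 3014 to 3739 under PBS (3376). The call of Tapbp in the combination was lost in 15 of 19 alternatives, and those of Nlrc5 and Tap2 under sActRIIB-Fc in 13 and 10. The cause was not tested. Scaling to equal medians put the higher calls among all genes at 69.6% in the combination, 71.8% under sActRIIB-Fc, 75.8% under running and 71.9% under PBS, against 49.7%, 50.9%, 51.3% and 51.1%. With the replicate block, 6, 3, 5 and 4 members were called in the combination, sActRIIB-Fc, running and PBS groups, beside 3922, 3824, 3462 and 3739 of all genes. The block changed no member call other than that of Nlrc5 under sActRIIB-Fc (adjusted p 0.0502). Signals near background limit Tap1 and Nlrc5, which have no measured level in wild type beyond a bound. H2-K1 and H2-D1 were dim as well, with wild-type means of 5.75 and 5.71 beside a wild-type detection limit of 5.53. Tapbp averaged 5.73 in the combination and 6.05 in wild type.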
